A study of Mus musculus with 2 samples.

Results

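Oligodendrocytes with little or no Klk6 were taken from the hippocampus of aged mice, and 5170 of the 31097 deposited cells were members. They were chosen by a rule on their own counts. A cell needed 500 or more UMIs (unique molecular identifiers, 1 per captured probe molecule) and 5 or more UMIs of Mog, Mag, Cldn11, Ermn and Opalin together. Those UMIs had to make up 15 or more per 10000 of the cell and at least 3 times the summed UMIs of Pdgfra, Aqp4, Csf1r, Flt1 and Slc17a7, and Klk6 had to be at 0 or 1 UMI. Of 6505 cells that met the oligodendrocyte part of the rule, the 1335 with 2 or more Klk6 UMIs are called Klk6-expressing oligodendrocytes below. The control library held 2877 members and the tomatidine library 2293.

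Both groups came from a cohort of C57BL/6 mice of both sexes, 21 months old at the start, fed chow for 3 months. The text of the paper gives the sexes of that cohort, not those of the 4 mice pooled per group. The control group received chow without the compound and the other group chow with 0.05% tomatidine, a steroidal alkaloid derived from tomato. Hippocampi of 4 mice were pooled into 1 library per group and profiled with a probe-based assay on fixed cells, which reads only genes that have a probe. Every mouse was aged, so no level here has a young reference. A single library stood for each group, so the groups could not be tested against each other. Intervals are 95% intervals, exact except for differences of shares (Newcombe), and cover counting error only, not the spread between mice.

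Oligodendrocytes wrap axons in compact myelin, a membrane rich in cholesterol and galactolipids that is held together by proteins such as myelin basic protein. They also feed lactate to axons and store iron. Mature cells of this lineage are not uniform. One state makes the secreted protease kallikrein 6 (Klk6), and others make more of the prostaglandin D synthase Ptgds or of the cytokine Il33. In aged or diseased brain, oligodendrocytes are known to express complement C4b, the protease inhibitor Serpina3n and the class I major histocompatibility complex (MHC), which presents peptides to CD8 T cells.

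The label was checked on genes outside the rule. Hapln2, a linker protein of the node of Ranvier, stood at 503 CPM (counts per 1e6 UMIs, summed over all members) in control and 468 CPM in tomatidine. In cells outside the oligodendrocyte gate it stood at 12.2 and 13.5 CPM. Mbp, myelin basic protein, stood at 4180 and 3897 CPM in members, against 416 and 472 CPM outside the gate. Cnp, an enzyme of non-compact myelin, stood at 2984 and 2714 CPM, against 96.7 and 103 CPM. Counts in this assay depend on the probes of each gene, so the order of genes by UMIs is not an order of molecules. Among the 10 genes with the most UMIs were Ptgds, Trf, Apod, App, Mbp, Aplp1, Cldn11, Fth1 and Tubb4a. Among the 10 most raised over cells outside the gate were Pkd2l1, Cldn11, Mag, Mog, Galnt6, Tmem88b, Opalin and Lctl. Cldn11, Mag, Mog and Opalin are rule genes, so their place describes the choice of cells only.

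RNA of other cell types was present in the members, with each list below the 9947 and 8223 CPM of the 5 rule genes. The 5 excitatory neuron markers summed to 1065 CPM in control and 960 CPM in tomatidine, led by Camk2a at 412 and 384 CPM. The 5 interneuron markers summed to 1178 and 1274 CPM, above the 1015 and 1215 CPM of cells outside the gate. The lists of all other cell types here were lower in members than outside the gate in both libraries. The 5 astrocyte markers summed to 517 and 431 CPM, led by Gfap, and the 4 measured microglia markers to 230 and 209 CPM, led by C1qa. The 5 precursor markers (86.8 and 85.7 CPM) and the 4 measured endothelial markers (14.8 and 19.7 CPM) were lower, as were those of fibroblasts (38.3 and 24.2 CPM), mural cells (52.5 and 42.6 CPM) and red cells (78.5 and 41.2 CPM). No measured marker of any of these lists was at 0 in either library. The 5 choroid plexus markers differed most between the libraries, at 2012 CPM in control and 87.6 CPM in tomatidine. Nearly all of it was Ttr, which carries thyroid hormone in cerebrospinal fluid. Ttr was seen in 85.5% of control and 20.9% of tomatidine members, and in 90.3% and 26.9% of cells of the excitatory neuron gate, which should lack it. After thinning each cell to 1500 UMIs the shares were 47.4% and 8.08% in members, and 27.5% and 5.21% in neurons. A single control member held 19.8% of the members' Ttr UMIs.

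Some members were much larger than the rest. Members with more than 6000 genes were 163 in control and 210 in tomatidine, which is 5.67% and 9.16% of members. They held 28.3% of the members' UMIs in control and 42.0% in tomatidine. Their 5 rule genes summed to 3685 and 3303 CPM, against 12413 and 11782 CPM in the remaining members. Their interneuron markers summed to 2619 and 2135 CPM, against 611 and 651 CPM. Markers of the other 3 classes compared did not follow that order in both libraries. Astrocyte markers were at 479.7 and 287 CPM, against 532 and 534 CPM, choroid plexus markers at 1670 and 17.2 CPM, against 2146 and 139 CPM, and excitatory neuron markers at 1259 and 899 CPM, against 989 and 1005 CPM. A level summed over all members is therefore pulled toward these cells, and more so in the tomatidine library. The top 2% of doublet scores took in 19.0% and 9.05% of them, and 2.06% and 2.93% of the remaining members. Whether these barcodes hold more than 1 cell was not tested further. Among 292 barcodes found in both libraries, 8 belonged to members of both.

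Members made up 18.1% of control cells (17.5 to 18.7) and 15.1% of tomatidine cells (14.5 to 15.7). The difference was -2.98 points (-3.80 to -2.15), and it was -4.24 points when cells of more than 6000 genes were left out of both counts. Fewer oligodendrocytes and better recovery of other cells cannot be told apart in a share. Median depth was similar, at 5245 UMIs and 2675 genes per control member and 4899 UMIs and 2582 genes per tomatidine member. Cells with a Y-linked UMI were 68.9% and 69.0% of members, and the 4 Y-linked genes together stood at 233 and 228 CPM. In the excitatory neuron gate, where cells were deeper, 83.0% and 83.5% had a Y-linked UMI. The sexes in each pool were not tested.

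Within the oligodendrocyte gate, the share at 0 or 1 Klk6 UMI was nearly the same in both libraries. It was 79.3% in control (78.0 to 80.6) and 79.7% in tomatidine (78.2 to 81.1), a difference of 0.35 points (-1.63 to 2.32). With cells thinned to 1500 UMIs, which left out 62 and 75 cells, the share was 91.2% in both. The limit is set in UMIs, so it moved with depth. Of 3 groups of gated cells cut at 4162 and 7637 UMIs, the shallow group held 90.9% and 91.3% members, the middle group 83.5% and 81.4%, and the deep group 63.8% and 65.9%. By the rule members had 0 or 1 Klk6 UMI, and 2543 of 2877 in control and 2060 of 2293 in tomatidine had 0, which at this depth does not show that Klk6 was absent.

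The values at the edge of the rule describe how sharp it was. There were 334 and 233 cells at 1 Klk6 UMI, just inside, and 136 and 108 cells at 2, just outside. With 5 or 6 UMIs of the rule genes there were 27 and 30 members, and 69 and 50 cells failed with 3 or 4. Between 15 and 20 per 10000 lay 40 and 71 members, and 45 and 59 cells failed at 10 to 15. At 3 to 4 times the other classes' genes lay 88 and 66 members, and 117 and 103 cells failed at 2 to 3 times. The median member had 65 rule-gene UMIs in control and 58 in tomatidine, far from the limit of 5. Rule genes made up a median of 120 and 116 per 10000, against a limit of 15. Klk6 itself was seen in 11.6% and 10.2% of members (3.53% and 2.97% thinned) and in 2.70% and 2.45% of cells of the excitatory neuron gate (0.396% and 0.377% thinned), whose median depths were 15743 and 15078.5 UMIs.

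Levels of several genes differed stepwise with the number of Klk6 UMIs. Ptgds, which makes prostaglandin D2 and is the secreted lipocalin of cerebrospinal fluid, had 8567 CPM in control cells at 0 Klk6 UMIs. It had 6177 CPM at 1 UMI, 3781 CPM at 2, 3637 CPM at 3 to 5 and 1608 CPM at 6 or more. The tomatidine library gave 7514, 5323, 3387, 2260 and 1611 CPM for the same bins, so the order was the same in both. S100b, a calcium-binding protein, went the other way, from 85.5 to 395 CPM in control and from 79.1 to 473 CPM in tomatidine. Serpina3n went from 250.1 to 1360 CPM and from 158 to 1186 CPM. Art3 was high in the last bin only, with 3.06, 1.096, 0.769, 3.56 and 50.5 CPM in control and 1.63, 1.37, 2.29, 4.97 and 35.5 CPM in tomatidine. Median depth also differed between the bins, from 5155 to 10279 UMIs per control cell and from 4813 to 10211 per tomatidine cell. Its part in these levels was not tested.

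**Figure D1:**
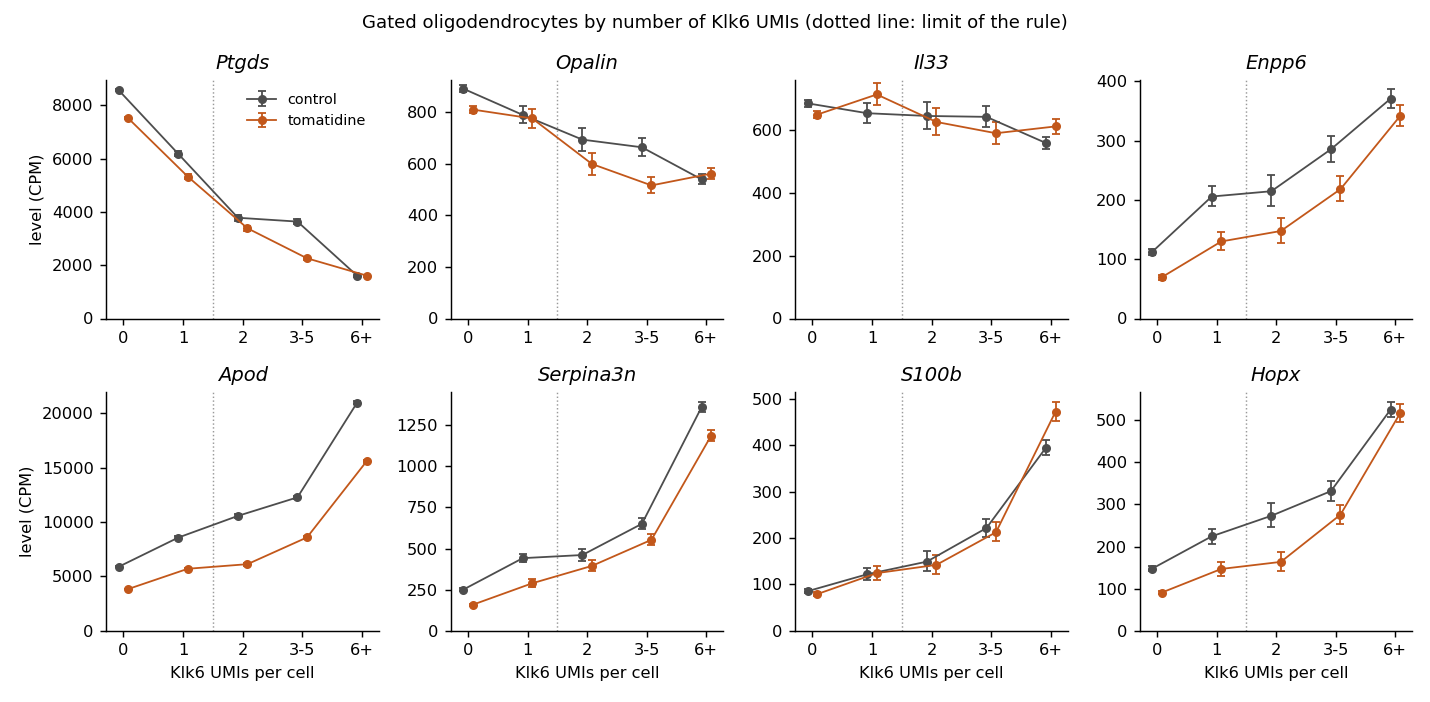
Level in CPM (y axis, from 0) of 8 genes in gated oligodendrocytes grouped by their Klk6 UMIs (x axis), in the control (grey) and tomatidine (orange) library; bars are 95% Poisson intervals and the dotted line is the limit of the rule. Ptgds and Opalin are highest at 0 Klk6 UMIs, Il33 is nearly flat, and Enpp6, Apod, Serpina3n, S100b and Hopx are highest at 6 or more.

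Members and Klk6-expressing oligodendrocytes were compared within each library, so the contrast was measured once per library. Of 11686 genes with 200 or more UMIs, Klk6 left out, 263 were higher in members by 0.5 or more on the log2 scale in both libraries (2.25%), and 239 were lower (2.05%). The higher count depended on the setting and lay between 158 and 1639, with 870 without cells of more than 6000 genes and 1639 with Klk6 limited per 10000 UMIs, while the lower count lay between 209 and 355. Of the 263 genes 37 were also at least 2-fold higher in members than in cells outside the gate, and of the 239 genes 125 were. Among the 11283 genes tested between the groups below, 1120 were so raised. The cells were split on Klk6, so these values are a description. Ptgds (chr2:25466709-25470046, minus strand, in GRCm38) had the highest CPM among the genes higher in members, at 8266 against 2398 CPM in control and 7268 against 2093 CPM in tomatidine. Its log2 ratios were 1.79 and 1.80, and over every setting tried they lay between 1.63 and 2.24. Thinned to 1500 UMIs, 94.8% and 95.2% of members had a Ptgds UMI, against 65.9% and 64.0% of Klk6-expressing cells and 20.7% and 24.1% of cells of the excitatory neuron gate. Unthinned, the members' shares were 98.6% and 99.0%, those of Klk6-expressing cells 93.1% and 94.0%, and those of neurons 77.9% and 82.8%.

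Other genes higher in members were the myelin protein Opalin, the lipid droplet coat protein Plin4 and the kinase Sgk1. Opalin, which is part of the rule in both classes, stood at 878 against 590 CPM in control and 806 against 556 CPM in tomatidine. Plin4 stood at 399 against 223 CPM and at 253 against 119 CPM, with log2 ratios of 0.84 and 1.09. Sgk1 stood at 1137 against 701 CPM and at 469 against 294 CPM, with 0.70 and 0.67. Il33, an alarmin of mature oligodendrocytes, differed little, with 0.21 and 0.11. By size of the ratio the highest genes were Prg4, Mgp, Fn1, Bmp4, Gpr151, Ptgds, Thbd, Col19a1, Sst and Thbs2. For some of these a single cell held a large part of the UMIs. One member held 79.2% of the control Prg4 UMIs, 46.4% of Fn1, 46.3% of Thbd and 17.7% of Sst, a neuropeptide of interneurons. For Ptgds the top member held 2.85%.

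Among the genes lower in members, the largest ratio was that of Art3. Art3, an ADP-ribosyltransferase, stood at 2.81 against 32.3 CPM in control and 1.60 against 21.5 CPM in tomatidine, with log2 ratios of -3.52 and -3.75. The homeobox factor Nkx2-9 gave -2.71 and -3.69, and the sodium/proton exchanger Slc9b2 -3.01 and -2.90. The others of the lowest 10 were the adhesion receptor Adgrg6, the growth factor receptor Fgfr4, the stretch-activated channel Piezo2, the aminoacylase Acy3, the protease Bace2, and the serpins Serpina3n and Serpind1. Serpina3n had the highest CPM of them, at 274 against 1064 CPM and at 173 against 879 CPM, with ratios of -1.96 and -2.34. S100b gave -1.83 and -2.04. Hopx, a homeodomain protein without DNA binding of its own, gave -1.50 and -2.01. Enpp6, a choline phosphodiesterase known from newly formed oligodendrocytes, gave -1.40 and -1.85.

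**Figure D2:**
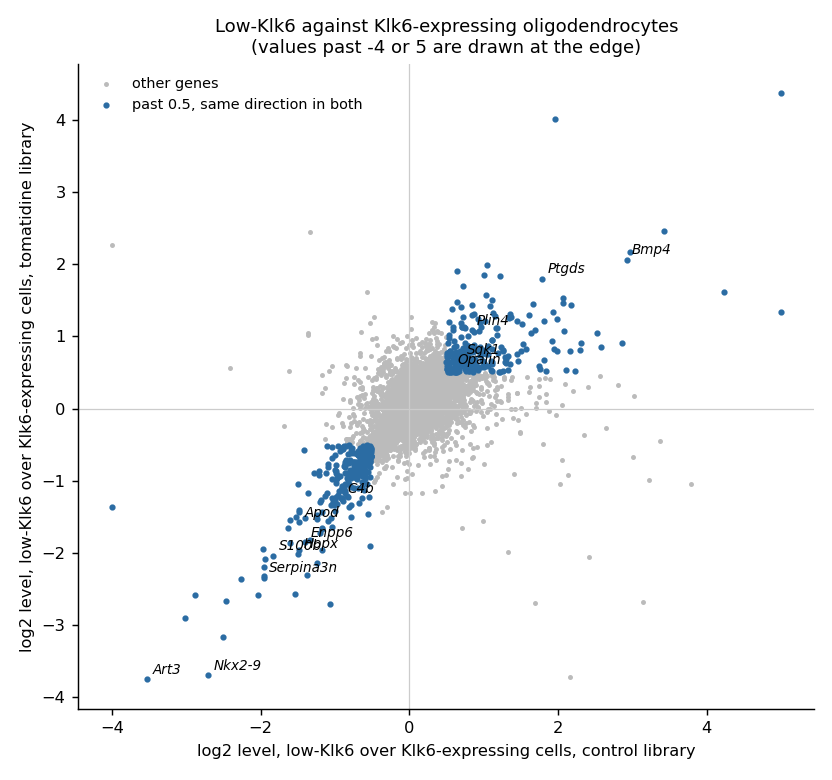
Each point is a gene: log2 ratio of its level in low-Klk6 over Klk6-expressing oligodendrocytes in the control (x axis) and the tomatidine library (y axis), with the 263 and 239 genes past 0.5 in the same direction in both drawn in blue. Art3, Nkx2-9 and Serpina3n lie far toward the lower left in both libraries and Ptgds toward the upper right.

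Lists of genes tied to mature states did not all follow their names. The shares of all genes past 0.5 in both libraries, 2.25% higher and 2.05% lower, are the background for their counts. Of 15 genes of mature oligodendrocytes without Klk6, 2 were higher in members (Ptgds and Opalin) and 4 were lower (Apod, Trf, Anln and Serpinb1a). Apod, a lipid-binding apolipoprotein, stood at 6230 against 17441 CPM in control and 4053 against 12074 CPM in tomatidine. Trf, the iron carrier transferrin, gave log2 ratios of -0.86 and -1.05. Of 15 genes of mature oligodendrocytes with Klk6, 4 were lower in members (Hopx, S100b, Anxa5 and Cd59a) and 0 were higher. C4b was also lower, with -0.90 and -1.24. The 13 genes of the mitochondrial genome had a median ratio of 0.46 in control and 0.36 in tomatidine, and 0 of them passed 0.5 in both libraries. Over all 11686 genes the medians were 0.07 and 0.07.

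Tomatidine and control members were then compared gene by gene. Of 11283 genes with 200 or more UMIs, 684 were higher with tomatidine by 0.5 or more on the log2 scale (6.06%) and 228 were lower (2.02%), around a median of 0.04. Without the members of more than 6000 genes these counts were 164 and 74, and over every setting tried they lay between 164 and 1029 and between 74 and 506. Several genes at both ends are known from other cell types. Lowest were Mfrp, Ttr, Slc17a8, Folr1, Krt73, Tac2, Ecrg4, Kcnj13, Kl and Cort, of which Ttr, Folr1 and Kl are choroid plexus markers. Ttr went from 1955 to 77.6 CPM, a ratio of -4.65 (-4.73 to -4.58). That ratio moved with depth far beyond its counting interval, with -3.06 in the shallow, -1.88 in the middle and -6.81 in the deep of 3 groups of members cut at 3809 and 6798 UMIs, and lay between -5.50 and -3.16 over the settings. In cells outside the gate Ttr was at -2.76. One control member held 88.0% of the control Slc17a8 UMIs, and the Slc17a8 ratio was -0.85 without the members of more than 6000 genes. Highest were Pou4f2, Tfap2b, Ebf3, Mab21l2, Mab21l1, Glra1, Tacr3, Bnc2, Pou4f1 and Adcyap1, several of them known from neurons outside the hippocampus. Tfap2b went from 1.80 to 28.1 CPM, a ratio of 3.97 (3.50 to 4.47), against 2.92 outside the gate. Of its 545 tomatidine UMIs 515 lay in the deep group. Pou4f2 had 0 UMIs in control members and 210 in tomatidine members, of which 201 lay in the deep group. Of the 858 genes past 0.5 that were not at least 2-fold higher in members than outside the gate, 746 had the same sign outside it. What part free RNA or merged barcodes had in them was not tested.

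Among the 1120 genes at least 2-fold higher in members than outside the gate, a limit chosen after the values were seen, the picture differed. Only 2 were higher by 0.5 or more (0.179%) and 52 were lower (4.64%), with a median of -0.20. These counts were 9 and 17 without cells of more than 6000 genes and 13 and 19 as a mean over cells, and over every setting tried they lay between 1 and 16 and between 17 and 77. The 2 higher were Cacna2d4, a calcium channel subunit, at 4.20 and 6.65 CPM, and Peg10, a gene derived from a retrotransposon, at 13.7 and 20.5 CPM. With members of 6000 genes or fewer, Peg10 was at 0.07 and Cacna2d4 at 0.81. In Klk6-expressing oligodendrocytes 47 of the 52 were also lower, 18 of them by 0.5 or more, where 848 of all 1120 were lower and 27 by 0.5 or more. Outside the gate 2 of the 52 and 15 of the 1120 were lower by 0.5 or more. Over members of 6000 genes or fewer the median of these genes was -0.03, and 18 of the 52 stayed past 0.5, of which 16 had 200 or more UMIs there. In each of the 3 depth groups 7 of the 52 were past 0.5: H2-D1, Nlrc5, Sgk1, Arl4d, Nfkbia, Kcnk5 and Fam83d. Of these Nlrc5, Kcnk5 and Fam83d rested on few UMIs in the shallow group, with 26 and 13, 22 and 7, and 56 and 34. The Nlrc5 ratio was -0.79 (-1.88 to 0.22) there and -0.90 (-1.84 to -0.04) in the middle group, and Fam83d was at -0.45 without the members of more than 6000 genes.

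**Figure D3:**
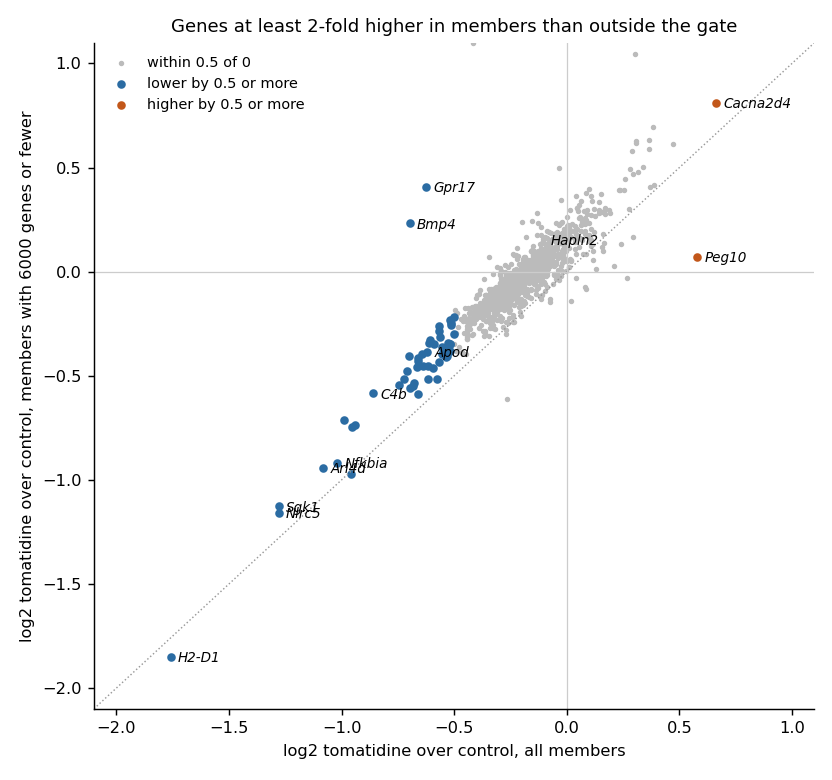
Log2 ratio of tomatidine over control for the 1120 genes at least 2-fold higher in members than outside the gate, over all members (x axis) and over members with 6000 genes or fewer (y axis); the dotted line marks equal values and points past the axes are drawn at the edge. Most genes lie above the line, while H2-D1 lies close to it at -1.76 and -1.85, and Gpr17 and Bmp4 change sign.

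Genes of MHC class I were lower in tomatidine members, and H2-D1 had the lowest ratio of the 1120. H2-D1, a class I heavy chain, had 1408 UMIs in control members and 372 in tomatidine members. Its level was 64.9 CPM in control and 19.2 CPM in tomatidine, a log2 ratio of -1.76 (-1.93 to -1.59), and over every setting tried the ratio lay between -1.92 and -1.72. H2-K1, the other classical heavy chain, stood at 63.8 and 21.96 CPM, with -1.54 (-1.70 to -1.38). B2m, the light chain that every class I molecule needs, stood at 72.9 and 27.7 CPM, with -1.40 (-1.54 to -1.26). Nlrc5, the factor that switches class I genes on, stood at 7.01 and 2.89 CPM, with -1.28 (-1.75 to -0.83). All 4 were lower without the members of more than 6000 genes, where H2-D1 gave -1.85, H2-K1 -1.53, B2m -1.43 and Nlrc5, with 188 UMIs there, -1.16. The heavy chains are near-identical relatives, so reads could be shared between them. Genes that load class I molecules had few UMIs: the proteasome subunits Psmb8 (129 and 64) and Psmb9 (104 and 44) and the transporter Tap1 (126 and 71).

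The share of members with an H2-D1 UMI was 23.4% in control (21.8 to 24.9) and 12.4% in tomatidine (11.1 to 13.8). Thinned to 1500 UMIs, which left out 59 and 69 members, it was 9.35% (8.30 to 10.5) and 3.31% (2.61 to 4.14). In the excitatory neuron gate the shares were 10.9% and 10.8%, and thinned 0.958% and 0.940%. By depth, the H2-D1 ratio was -2.06 in the shallow group, -1.53 in the middle group and -1.74 in the deep group. B2m gave -1.42, -1.41 and -1.36. In Klk6-expressing oligodendrocytes the ratio of H2-D1 was -0.89 (-1.12 to -0.67), that of H2-K1 -0.64 (-0.85 to -0.43) and that of B2m -1.01 (-1.20 to -0.81). For each of the 3 genes the intervals of the 2 classes do not meet, which covers counting error only. For Nlrc5 they do, with -1.01 (-1.52 to -0.51) in Klk6-expressing oligodendrocytes and -1.28 in members. In control, H2-D1 was at 64.9 CPM in members and 56.6 CPM in Klk6-expressing cells, and with tomatidine at 19.2 and 30.5 CPM. The Klk6-expressing class was not uniform in this. From control to tomatidine, H2-D1 went from 70.0 to 35.2 CPM at 2 Klk6 UMIs and from 74.8 to 24.8 CPM at 3 to 5. At 6 or more it went from 46.6 to 31.7 CPM. Members at 0 UMIs went from 63.4 to 19.3 CPM and those at 1 UMI from 75.3 to 18.3 CPM.

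Other gates gave the same genes smaller or opposite ratios. H2-D1 was at -0.46 in the microglia gate, -0.45 in the astrocyte gate, -0.06 in the precursor gate and -0.09 in the excitatory neuron gate. In the endothelial gate, with 128 control and 205 tomatidine cells, it was at 0.70 (0.46 to 0.94). Levels in the microglia gate were far higher, at 225 and 163 CPM. The summed microglia markers in the members differed by -0.13 on the log2 scale, less than the class I genes, and their part in these levels was not tested.

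**Figure D4:**
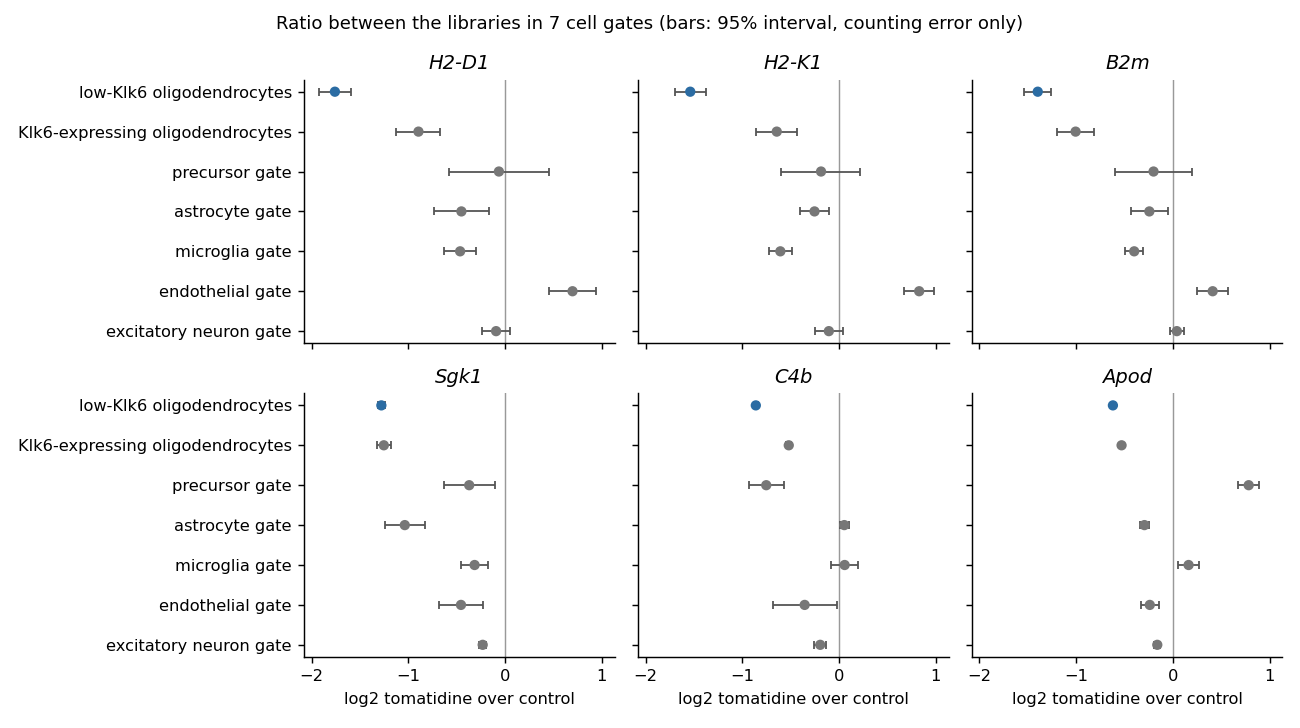
Log2 ratio of tomatidine over control (x axis) for 6 genes in 7 cell gates (y axis), with 95% intervals of counting error as bars; low-Klk6 oligodendrocytes are in blue. H2-D1, H2-K1 and B2m are lowest in low-Klk6 oligodendrocytes and above 0 in the endothelial gate, and Sgk1 is alike in both oligodendrocyte classes.

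The promoters of the 3 chains are shown because the genes were lower together in the members. H2-D1 lies at chr17:35262730-35267499 (plus strand), H2-K1 at chr17:33996017-34000347 (minus strand) and B2m at chr2:122147686-122153083 (plus strand). Each run covers 250 bases before to 50 after the RefSeq start, in build GRCm38.p6, read along the gene's strand. The runs are chr17:35262844-35263143 for H2-D1, chr17:34000298-34000597 for H2-K1 and chr2:122147437-122147736 for B2m. The H2-D1 run lies within the span given for that gene, which begins upstream of the RefSeq start used. Capitals mark matches to GGGATTCCC, a binding sequence of NF-kappaB, and to AANNGAAA, the core of the interferon-stimulated response element, each searched on both strands, and no 2 matches overlap.
H2-D1: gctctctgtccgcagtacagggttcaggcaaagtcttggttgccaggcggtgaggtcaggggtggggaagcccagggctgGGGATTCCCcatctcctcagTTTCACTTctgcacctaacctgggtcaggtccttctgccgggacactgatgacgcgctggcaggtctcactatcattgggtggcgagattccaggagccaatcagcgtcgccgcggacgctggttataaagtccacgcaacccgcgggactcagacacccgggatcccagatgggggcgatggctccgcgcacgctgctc
H2-K1: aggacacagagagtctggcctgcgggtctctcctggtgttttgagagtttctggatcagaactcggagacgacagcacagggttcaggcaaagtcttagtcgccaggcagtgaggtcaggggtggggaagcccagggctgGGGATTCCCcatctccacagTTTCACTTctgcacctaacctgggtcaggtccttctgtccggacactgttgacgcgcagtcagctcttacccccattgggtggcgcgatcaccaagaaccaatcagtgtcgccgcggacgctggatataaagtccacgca
B2m: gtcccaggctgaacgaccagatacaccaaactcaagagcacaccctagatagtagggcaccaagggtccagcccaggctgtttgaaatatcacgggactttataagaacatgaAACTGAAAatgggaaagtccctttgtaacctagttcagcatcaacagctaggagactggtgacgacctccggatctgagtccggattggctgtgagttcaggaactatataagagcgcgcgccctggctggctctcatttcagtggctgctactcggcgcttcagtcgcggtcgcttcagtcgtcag
H2-D1 and H2-K1 each held both motifs, starting at positions 81 and 101 of the first run and 141 and 161 of the second. Positions count from the first base of each run and so depend on the annotated start. They do not show a different motif distance in the 2 genes. B2m held the second motif at position 114 and not the first. Of all 32851 promoters of this length, 0.353% held the first motif and 23.9% the second. H2-D1 and H2-K1 carry the second motif on the opposite strand. A match is a sequence and not a measured binding site.

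Sgk1, Nfkbia and Arl4d were lower in members at every depth. Sgk1, a kinase induced by serum and glucocorticoids, had 24668 and 9093 UMIs and stood at 1137 and 469 CPM, a ratio of -1.28 (-1.31 to -1.24). Sgk1 lies at chr10:21882184-21999903 on the plus strand. The share of members with a Sgk1 UMI was 91.7% and 69.8%, and 73.8% and 44.3% thinned, while the excitatory neuron gate gave 62.9% and 55.2%, and 12.3% and 9.92% thinned. Its ratios from the shallow to the deep group were -1.08, -1.16 and -1.33. Klk6-expressing oligodendrocytes gave -1.25 and cells outside the gate -0.42. Nfkbia, the inhibitor that holds NF-kappaB in the cytoplasm, stood at 119 and 58.8 CPM, with -1.02 (-1.12 to -0.92). Arl4d, a small GTPase, stood at 204 and 96.3 CPM, with -1.08 (-1.161 to -1.003). In Klk6-expressing oligodendrocytes Nfkbia was at -0.96 and Arl4d at -0.98, and outside the gate they were at -0.18 and -0.36. Ddit4, an inhibitor of mTORC1, stood at 289 and 180 CPM, with -0.68, and the secreted protease Htra1 at 332 and 210 CPM, with -0.66. Without the members of more than 6000 genes Sgk1 gave -1.13, Nfkbia -0.92, Arl4d -0.94 and Ddit4 -0.55, and Htra1, at -0.43, no longer passed 0.5.

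**Figure D5:**
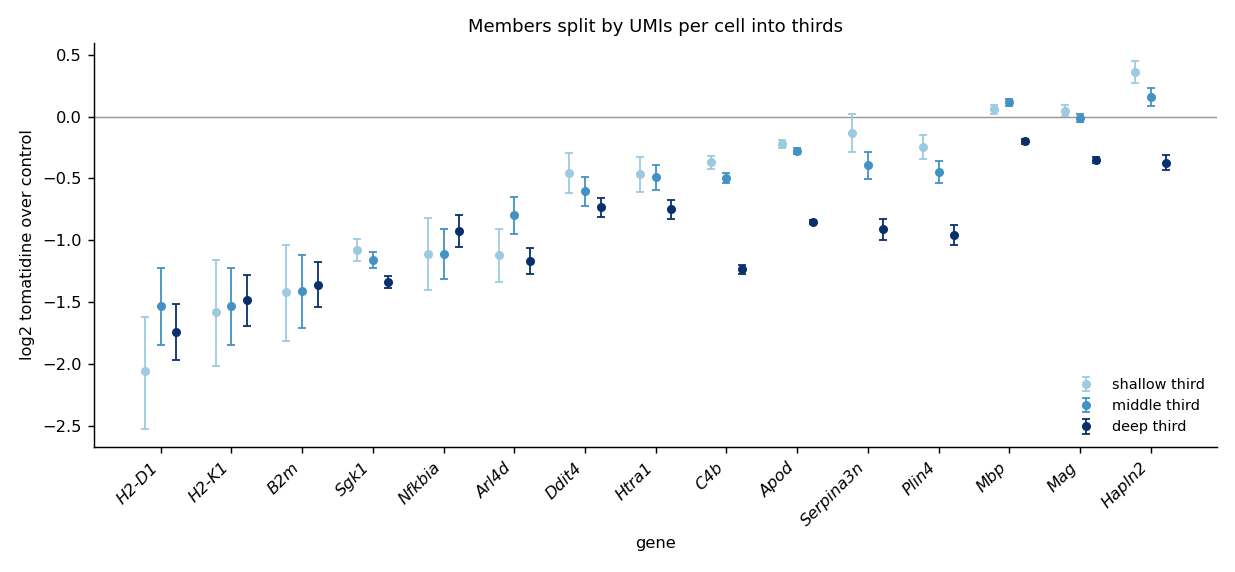
Log2 ratio of tomatidine over control (y axis) for 15 genes (x axis) in members split by UMIs per cell into 3 groups of like size, with 95% intervals of counting error as bars. H2-D1, H2-K1, B2m, Sgk1, Nfkbia and Arl4d are past -0.5 in each group, whereas Mbp, Mag (a rule gene) and Hapln2 are at -0.20, -0.35 and -0.37 in the deep group and between -0.01 and 0.36 in the others.

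Of the 17 measured genes of aged or disease-associated oligodendrocytes with 200 or more UMIs, 9 were lower by 0.5 or more, 0 were higher, and the median was -0.62. Over all genes tested 2.02% were lower, 6.06% were higher and the median was 0.04. Over the 1120 genes raised in members 4.64% were lower, 0.179% were higher and the median was -0.20. This list, like the others here, was chosen with earlier results of these data known, so its count is a description only. The 9 were H2-D1, H2-K1, B2m, Sgk1, C4b, Serpina3n, Plin4, Cd74 and Apod, and the highest was the protease Ctsb at 0.15. C4b, the complement component that tags surfaces for removal (chr17:34728380-34743882, minus strand), stood at 2044 and 1127 CPM, with -0.86 (-0.88 to -0.84). It was at -0.04 outside the gate and -0.52 in Klk6-expressing cells. Serpina3n stood at 274 and 173 CPM, with -0.66, and Apod at 6230 and 4053 CPM, with -0.62. These 3 and Plin4 depended on depth. From the shallow to the deep group C4b gave -0.37, -0.49 and -1.23, and Apod -0.22, -0.28 and -0.85. Serpina3n gave -0.13, -0.39 and -0.91, and Plin4 -0.24, -0.45 and -0.95. Without the members of more than 6000 genes, 5 of the 17 were past 0.5 and the median was -0.38. C4b was then at -0.58, Serpina3n at -0.46, Plin4 at -0.42 and Apod at -0.38.

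Myelin genes were lower in the summed members by about as much as the median of the 1120 genes raised in members, which was -0.20, and -0.03 without the members of more than 6000 genes. All 30 measured genes of compact myelin and paranodes with 200 or more UMIs were below 0, with a median of -0.22, and 3 were past -0.5 (Gsn, Plp2 and Ndrg1), where 2.02% of all genes tested were lower and 6.06% higher. The 5 rule genes are in this list. Mbp gave -0.10. Without the members of more than 6000 genes the median of the list was -0.03 and 0 of 29 were past 0.5, with Mbp at 0.08. Of 23 genes of myelin lipid synthesis 1 was higher (Sgpp2, and at 0.49 it no longer passed 0.5 without the largest members), with a median of -0.21 and then -0.07. Of 18 oligodendrocyte transcription factors 1 was higher (Tcf7l2) and 1 lower (Hopx), with -0.21 and then -0.02. Tcf7l2, at 0.47, no longer passed 0.5 without the largest members. Per cell, the median of Mbp, which the rule did not use, was 46.9 UMIs per 10000 in control members of 1500 or more UMIs and 49.0 in tomatidine members. For Hapln2 the medians were 5.17 and 5.28.

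The interferon response list had 11 genes with 200 or more UMIs, of which 4 were lower (Igtp, Bst2, Irf1 and Ifi27) and 0 higher, with a median of -0.39. Of all genes tested, 2.02% were lower and 6.06% higher. Igtp, a GTPase induced by interferon gamma, stood at 13.1 and 4.69 CPM, with -1.48 (-1.84 to -1.14). Ifi27 stood at 172 and 119 CPM, with -0.53. Xaf1 was at -0.07, and Ifit3, the highest, at 0.41 (0.09 to 0.73). The antiviral genes Ifit1 and Isg15, with 110 and 105 UMIs in all, stood at 2.17 and 3.25 CPM and at 2.07 and 3.09 CPM. Without the members of more than 6000 genes 2 of 10 were past -0.5 and the median was -0.35.

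In the other lists few genes passed 0.5. Their counts stand against 6.06% of all genes tested that were higher and 2.02% that were lower, and their medians against 0.04 over those genes and -0.20 over the 1120 raised in members. Of 15 genes of mature oligodendrocytes without Klk6, 1 was lower (Apod), with a median of -0.19, and of 16 genes of those with Klk6, 1 was lower (Hopx) and 1 higher (Syt2), with -0.15. The 4 Y-linked genes had a median of 0.04. Of 19 genes of the integrated stress response, 2 were higher (Asns and Chac1) and 1 was lower (Ddit4), with a median of -0.10. Asns, asparagine synthetase, stood at 67.1 and 106 CPM, with 0.65, and at 0.41 without the members of more than 6000 genes. Of 21 p53 targets and cell cycle inhibitors 3 were lower (Cdkn1c, Perp and Eda2r), with a median of -0.09. Over members of 6000 genes or fewer 3 of 20 were lower (Cdkn1a, Cdkn2c and Cdkn1c, at -0.63, -0.61 and -0.56) and the median was -0.02, with Eda2r at -0.46 and Perp at 0.24. Cdkn1a, which encodes the senescence marker p21, had 189 and 132 UMIs in members and stood at 8.71 and 6.81 CPM, with -0.36 (-0.69 to -0.03). Its ratio was -0.89 (-1.92 to 0.07) in the shallow group, -1.07 (-1.997 to -0.22) in the middle group and -0.09 (-0.49 to 0.31) in the deep group. A Cdkn1a UMI was seen in 5.01% and 3.92% of members, 1.25% and 0.893% thinned, and in 11.5% and 12.4% of the excitatory neuron gate, 1.09% and 1.33% thinned. Cdkn2a, which encodes p16, had 32 and 19 UMIs. Cholesterol synthesis had a median of 0.11 with 0 of 23 genes past 0.5, autophagy and mitophagy 0.04 with 0 of 24, heat shock proteins 0.02 with 1 of 23 (Hspa1b, lower), and the mitochondrial genome -0.11 with 0 of 13. Axonal support, iron and ion transport had -0.17 with 0 of 22, and immediate early genes -0.16 with 1 of 15 (Nr4a2, lower, and at -0.20 over members of 6000 genes or fewer). Of 16 genes of newly formed oligodendrocytes 4 were lower (Neu4, Enpp6, Bmp4 and Gpr17) and 1 higher (Tcf7l2), with a median of -0.12. Over members of 6000 genes or fewer 0 of 15 were past 0.5 in either direction and the median was 0.11, with Gpr17 at 0.41, Bmp4, with 172 UMIs, at 0.23, Neu4 at -0.14 and Enpp6 at -0.41. One member held 31.6% of the control Gpr17 UMIs.

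Members varied more in some genes than in others. Over members of 1500 or more UMIs, Mbp had quartiles of 33.0, 46.9 and 61.2 UMIs per 10000 in control, and of 33.7, 49.0 and 64.7 in tomatidine. C4b, which had fewer UMIs per cell, spread more widely around its median, with quartiles of 3.0, 15.2 and 44.0 in control and 0.64, 5.84 and 25.9 in tomatidine. Ptgds had quartiles of 31.7, 75.7 and 133 in control and of 29.5, 69.5 and 129.6 in tomatidine, while its ratio outside the gate was 0.68. Sgk1 had a median of 11.1 in control and 3.11 in tomatidine. As a description over 2818 control and 2224 tomatidine members, which share a library and its free RNA, Pearson correlations of log levels were 0.52 and 0.53 for C4b with Serpina3n. They were 0.71 and 0.74 for Apod with Trf, and -0.32 and -0.28 for Ptgds with Enpp6. For H2-D1 with B2m they were 0.52 in control and 0.17 in tomatidine, where the level was lower.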

How the data were processed

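Cells from 2 pooled libraries were analysed, 1 per group. Per the file headers and the labels, the authors aligned probe reads to mm10 with Cell Ranger (7.1.0 in the file headers, 8.0.0 in the submitters' processing notes) and deposited filtered UMI counts per gene and cell for 19059 genes. The libraries held 15912 and 15185 barcodes and 279525565 and 259059908 UMIs, and 2 tomatidine barcodes under 500 UMIs were left out. Members and gene lists were chosen with earlier results of these data known. Counts were summed over the members of a library and divided by their total (CPM); the members held 21690410 and 19395036 UMIs. A log2 ratio of 0.5 or more was called where a gene had 200 or more UMIs over all members, and no p-value was computed. Ratios of named genes in other gates, depth groups and subsets are also given below that minimum. Intervals are exact conditional binomial, Clopper-Pearson or Poisson (95%), and Newcombe for differences of shares. Shares thinned to 1500 UMIs are expected values. The cells of more than 6000 genes, an upper limit in the study's methods, were left out as an alternative. No doublet was removed: Scrublet (scanpy 1.11.5) called 0 control and 1 tomatidine cells, too few to have worked, so its top 2% of scores was left out as an alternative. TMM factors came from edgeR 4.0.16 (R 4.3.3), and Python 3.11.15 with scipy 1.17.1 was used. Named genes were Cdkn1a, Cdkn2a, Klk6, the rule and marker genes, the 10 at each end of each ratio, the ends and most abundant gene of each list, and the 10 genes highest by CPM and by ratio over other cells. The genes at least 2-fold higher in members, the 45 genes compared across gates and other list members were chosen after their values were seen. Comparison gates (precursor, astrocyte, microglia, endothelial, excitatory neuron) used 5 markers each with the limits of the oligodendrocyte rule. The other settings were stricter gates, 0 Klk6 UMIs only, Klk6 per 10000, cells with a Y-linked UMI, no shared barcodes, less neuronal RNA, other scalings, a mean over cells and a lower gene minimum. Gene coordinates were matched by identifier to GENCODE M21 (GRCm38), for 448 of 448 genes. Some genes of the lists are not reported here by name.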

Additional observations from a re-analysis of the deposited data

Results flagged for a closer look

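Several of the 45 genes compared across cell gates, all chosen after their values were seen, had ratios of tomatidine over control in low-Klk6 oligodendrocytes and in another gate that lay on opposite sides of 0, with both intervals of counting error clear of 0. With 1 library per group the difference itself was not tested. The endothelial gate, with 128 control and 205 tomatidine cells, gave most of them. There H2-K1 was at 0.83, H2-D1 at 0.70, B2m at 0.41, Nlrc5 at 1.08 and Igtp at 0.64, against -1.54, -1.76, -1.40, -1.28 and -1.48 in low-Klk6 oligodendrocytes. In the same gate Plin4 was at 1.23 and Arl4d at 0.35, against -0.66 and -1.08. Npy, a neuropeptide of interneurons, was at 2.01 there and at -1.69 in low-Klk6 oligodendrocytes, where it turned on the deepest members: it was at 0.02 (-0.41 to 0.45) in the shallow depth group, at 0.81 (0.45 to 1.18) in the middle group and at -2.11 in the deep group. Tcf7l2, a factor of the Wnt pathway, was at 0.90 in low-Klk6 oligodendrocytes, at -0.90 in the endothelial gate and at -0.26 in the astrocyte gate. In low-Klk6 oligodendrocytes Tcf7l2 also turned on the deepest members. It was at 0.13 (-0.23 to 0.49) in the shallow, 0.15 (-0.13 to 0.43) in the middle and 0.94 in the deep group. Apod was at -0.62 in low-Klk6 oligodendrocytes, at 0.78 in the precursor gate and at 0.16 in the microglia gate. C4b, at -0.86 in low-Klk6 oligodendrocytes, was at 0.055 in the astrocyte gate. In the excitatory neuron gate Hopx was at 0.11 and Htra1 at 0.13, against -0.70 and -0.66.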

How the results depend on the processing

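No paired analysis was possible because each group had 1 pooled library, and for the same reason no replicate could be left out. The settings that removed shared barcodes, required less neuronal and choroid plexus RNA, or kept only genes raised in members were chosen after seeing the data. Leaving out cells of more than 6000 genes gave 164 genes higher and 74 lower with tomatidine, against 684 and 228, and among genes raised in members 9 and 17, against 2 and 52. It gave 870 genes higher than in Klk6-expressing cells, against 263, and a difference in the share of cells of -4.24 points, against -2.98. With a gate of 30 per 10000 these counts were 306 and 114, 9 and 24, and 158. With a purity of 10 they were 1029 higher of all tested genes, 1 higher among raised genes and 480. With less neuronal and choroid plexus RNA they were 86 lower of all tested genes, 6 and 30 among raised genes, and 173, with -2.11 points. A mean over cells gave 402 and 127, and 13 and 19. A minimum of 50 UMIs gave 506 lower of all tested genes, 16 higher among raised genes and 459. Klk6 under 2 per 10000 gave 1 higher among raised genes and 1639. The cause was not tested. Of the named ratios past 0.5, those of tomatidine over control changed sign for Bmp4 (0.23 without cells of more than 6000 genes, 0.26 as a mean over cells), Gpr17 (0.41 without those cells), Mgp (0.14 as a mean over cells), and Cort (0.25) and Slc17a8 (0.59) with less neuronal RNA. Smaller ratios also crossed 0, among them Prg4 (-2.08 to 2.06 over the settings), Fn1 (-1.19 to 0.91), Thbd (-0.93 to 1.22), Sst (-0.59 to 0.95), Hapln2 (-0.16 to 0.19), Ptgds (-0.26 to 0.03) and Mbp (-0.14 to 0.08). Against Klk6-expressing cells in control, Gpr151 was at -0.26 without cells of more than 6000 genes and at -0.15 with a purity of 10, and Sst at -0.17 with less neuronal RNA. The share at 0 or 1 Klk6 UMI and the count lower than in Klk6-expressing cells stayed within the counting interval and within 1.5 times the count, in that order, under every setting run. Of the values of named genes under other settings, 604 against Klk6-expressing cells and 1422 of tomatidine over control lay within the counting interval and 225 and 489 outside it, and of list medians 207 moved by 0.1 or less and 31 by more. TMM scaling put the median of all genes at 0.00.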

Other observations

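Kcnk5, Clic5, Rnf125, Pdk4, Slc38a2 and Abca1 were among the 52 genes raised in low-Klk6 oligodendrocytes and lower there with tomatidine. They belong to none of the lists above and were picked singly for this description after their values were seen, so they stand for no group of genes. Kcnk5, a potassium leak channel that buffers the resting potential, stood at 8.30 CPM in control and 4.18 CPM in tomatidine members, with a log2 ratio of -0.99 (-1.39 to -0.60), while it was at 0.08 in Klk6-expressing oligodendrocytes and at 0.36 outside the gate. Clic5, a chloride channel protein tied to the cytoskeleton, stood at 40.9 and 21.3 CPM, with -0.94 (-1.11 to -0.77), and Rnf125, a ubiquitin ligase, at 15.6 and 8.04 CPM, with -0.95 (-1.24 to -0.68). Pdk4, which blocks the entry of pyruvate into the citric acid cycle, stood at 18.4 and 11.7 CPM, with -0.66 (-0.90 to -0.42). Slc38a2, a carrier of neutral amino acids, stood at 502.9 and 346 CPM, with -0.54, and Abca1, which exports cholesterol, at 68.1 and 47.7 CPM, with -0.51. Unlike Kcnk5, these genes were also lower in Klk6-expressing oligodendrocytes. Clic5 was at -0.48 there, Rnf125 at -0.68, Pdk4 at -0.79, Slc38a2 at -0.50 and Abca1 at -0.31. Without the members of more than 6000 genes Kcnk5 was at -0.71, Clic5 at -0.74, Rnf125 at -0.75 and Pdk4 at -0.59. Slc38a2 and Abca1, at -0.37 and -0.25, then did not pass 0.5. From the shallow to the deep group Clic5 gave -0.30, -0.95 and -1.03, and Rnf125 gave -0.28, -0.91 and -1.20. Pdk4 gave -0.23, -0.64 and -0.73. Kcnk5 gave -1.44, -0.89 and -0.88, with only 22 and 7 UMIs in the shallow group.

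Genes of the lists that were higher with tomatidine were not raised 2-fold in members over cells outside the gate. Tcf7l2 stood at 98.2 CPM in control and 183 CPM in tomatidine members, with 0.90 (0.82 to 0.98), and at 0.47 without the members of more than 6000 genes. By depth group it was at 0.13, 0.15 and 0.94 from shallow to deep. Syt2, a calcium sensor of vesicle release, stood at 14.5 and 44.4 CPM and was also higher outside the gate, by 1.06. Sgpp2, which removes phosphate from sphingosine 1-phosphate, stood at 10.5 and 23.2 CPM, and outside the gate it was at 0.41. Its ratio was 1.15 over all members and 0.49 without those of more than 6000 genes.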
